A study of Mus musculus with 18 samples.

Results

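Collagens, laminins, integrins and metalloproteases of cultured sensory neurons were followed over the first day after their axons were cut. The genes were taken by their symbols, as the protein-coding genes whose GENCODE vM21 symbol is that of a numbered collagen chain (Col), integrin alpha or beta chain (Itga, Itgb), laminin chain (Lama, Lamb, Lamc), metalloprotease of the Adam, Adamts or Mmp family, or Timp inhibitor. The name rule gave 165 of the 47643 genes counted: 45 collagen, 18 integrin alpha, 13 integrin beta, 11 laminin, 33 Adam, 19 Adamts, 22 Mmp and 4 Timp genes. It also caught 5 genes that make no collagen or integrin chain, namely Col4a3bp, which encodes the ceramide transfer protein, the integrin-binding proteins Itgb1bp1 and Itgb1bp2, the centromere protein gene Itgb3bp, and Itgbl1, a secreted integrin-like protein. These stayed in their families and are named where they weigh on a count.

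The cultures were spots of dorsal root ganglia (DRG) from CD-1 mice at the embryonic stage e13.5, grown with nerve growth factor and with FDU, a mitotic inhibitor that removes dividing non-neuronal cells. RNA was sequenced in 3 libraries from uninjured control cultures at 7 days in vitro (DIV7). A further 3 libraries came from each of 5 times after a blade cut the axons. These times were 1, 3, 8, 16 and 24 hours post injury (HPI), which made 18 libraries in all. The labels do not say whether the 3 libraries of a group came from separate cultures. Every group had the same strain, embryonic stage and FDU treatment. The labels give DIV7 for all samples, while the study's methods place the cut itself at DIV7, and with no uninjured culture kept to the later times, hours in culture and hours after injury cannot be told apart. A library held the RNA of all cells collected, and the number of spots per library is not given. Fewer cells of a type and less RNA per cell therefore cannot be told apart. Libraries with the same replicate number varied together, and the number entered the test as a block.

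Integrins are paired alpha and beta chains that span the membrane and tie matrix proteins such as laminin, fibronectin and vitronectin to the cytoskeleton, and the growth of sensory axons depends on the match between the integrins on the growth cone and the matrix around it. Laminins and network collagens build basement membranes, and fibrillar collagens are made chiefly by fibroblasts. Mmp, Adam and Adamts proteases cut matrix proteins or shed the outer parts of membrane proteins, and Timp proteins block them.

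The DNA before a RefSeq start is shown for 4 genes that were called higher after injury, namely Itga5, Itgb5, Adamts1 and Mmp12. It is also shown for Col25a1, whose fall had the lowest adjusted p among the collagens. For Mmp12 and Col25a1 the RefSeq start shown lies inside the gene as GENCODE vM21 bounds it. RefSeq gave a promoter for 110 of the 165 genes, and 121 windows of 250 bases before the start were searched on both strands for the AP-1 site TGACTCA, bound by Fos and Jun proteins, the GC box GGGCGG, and the cAMP response element TGACGTCA. Capitals mark the matches in the sequences, which run 5′ to 3′ on the strand of the gene and come from RefSeq on GRCm38.p6.
Itga5 (chr15:103366792-103367041, minus strand): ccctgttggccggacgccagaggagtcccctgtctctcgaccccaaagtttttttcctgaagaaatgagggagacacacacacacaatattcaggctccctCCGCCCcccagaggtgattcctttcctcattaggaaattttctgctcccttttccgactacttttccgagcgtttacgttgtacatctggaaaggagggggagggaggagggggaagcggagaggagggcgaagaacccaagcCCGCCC
Itgb5 (chr16:33829415-33829664, plus strand): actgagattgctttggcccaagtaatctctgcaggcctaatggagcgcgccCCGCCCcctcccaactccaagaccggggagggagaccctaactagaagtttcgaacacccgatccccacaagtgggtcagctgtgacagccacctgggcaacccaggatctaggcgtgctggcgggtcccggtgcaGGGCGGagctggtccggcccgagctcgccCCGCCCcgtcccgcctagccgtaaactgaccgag
Adamts1 (chr16:85803114-85803363, minus strand): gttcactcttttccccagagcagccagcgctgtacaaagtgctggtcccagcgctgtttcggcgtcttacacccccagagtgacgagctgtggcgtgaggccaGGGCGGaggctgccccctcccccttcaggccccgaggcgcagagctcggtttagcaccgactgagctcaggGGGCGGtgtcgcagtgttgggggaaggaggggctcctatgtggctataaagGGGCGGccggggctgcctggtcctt
Mmp12, the downstream of its RefSeq starts (chr9:7347124-7347373, plus strand): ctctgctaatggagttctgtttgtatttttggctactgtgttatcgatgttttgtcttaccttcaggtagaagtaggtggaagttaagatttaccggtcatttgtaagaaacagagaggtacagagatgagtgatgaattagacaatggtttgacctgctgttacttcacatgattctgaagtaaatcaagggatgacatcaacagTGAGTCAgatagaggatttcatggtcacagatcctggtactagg
Col25a1 (chr3:130180595-130180844, plus strand): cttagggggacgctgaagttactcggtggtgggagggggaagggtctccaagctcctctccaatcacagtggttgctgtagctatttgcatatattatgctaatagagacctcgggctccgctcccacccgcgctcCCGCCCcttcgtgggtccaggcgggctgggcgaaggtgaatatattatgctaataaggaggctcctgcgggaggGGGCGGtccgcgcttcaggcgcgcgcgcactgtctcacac

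Itga5 and Col25a1 held 2 GC boxes each in these windows, and Itgb5 and Adamts1 held 3 each. A GC box was present in 52 of the 121 windows of the named families (43.0%) and in 32.7% of all 32851 RefSeq windows of this length. Mmp12 had an AP-1 site that began 44 bases before this start, while the window before its other RefSeq start (chr9:7344147-7344396) held none of these motifs. AP-1 sites were found in 10 of the 121 windows (8.26%) against 4.46% of all windows, and 6 of the 10 belonged to Mmp genes, namely Mmp1b, Mmp3, Mmp7, Mmp10, Mmp12 and Mmp13. Of these 6 genes, Mmp1b and Mmp7 had 0 counts in each of the 18 libraries, and Mmp3, Mmp10 and Mmp13 had no more than 1, 2 and 4 counts in any library. The cAMP response element was in 0 of the 121 windows and in 1.55% of all windows. A match describes the letters only.

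Most of the 165 genes were silent or close to it in these cultures. Of them, 78 passed the filter of over 1 CPM (a count scaled by the size of its library) in at least 3 libraries and were tested, and 87 did not pass. No library held more than 3 counts of 31 genes, and 12 genes, 9 of them Adam genes, had 0 counts throughout; 3 counts came to between 0.130 and 0.316 CPM in the 18 libraries, a limit that covers counting error only. A gene could pass the filter through 1 group alone, so counts over the 78 tested genes do not stand for the families. The libraries held between 9478891 counts on genes (8 HPI replicate 2) and 23082327 (3 HPI replicate 2), so low genes were measured least well in the former.

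Levels per length of exon (RPKM, which is CPM divided by the kilobases of exon) in the control cultures were led by an inhibitor, an integrin chain and membrane-bound Mmp and Adam proteins. Timp2, an inhibitor of Mmp proteases, stood at 136 ± 15.8 RPKM (SD, n = 3). Itgb1, the beta chain shared by most laminin and fibronectin receptors, had 78.7 ± 10.1 RPKM and Mmp15, a membrane-bound protease, 68.7 ± 1.98 RPKM. The SD ranges of Itgb1 and Mmp15 overlapped.

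The Adam family contributed Adam19, a membrane protease that sheds neuregulin, at 53.9 ± 1.11 RPKM, and Adam11 and Adam22 at 43.4 ± 7.79 and 31.5 ± 4.92 RPKM. Adam11, Adam22 and Adam23 make proteins without protease activity, and Adam22 and Adam23 are neuronal receptors of the secreted Lgi1 protein. The 6 genes highest in CPM, Timp2, Adam22, Adam19, Mmp15, Itgb1 and Adam23, made up 61.5% ± 3.48 (SD, n = 3) of the summed level of all 165 genes in control, which was 3789 ± 170.3 CPM. That sum lay between 3205 and 3956 CPM across the 18 libraries.

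Among the integrin alpha chains the order in control was Itga3, a laminin receptor chain, at 20.4 ± 2.38 RPKM, Itga7, a further laminin receptor chain, at 12.6 ± 0.79 RPKM, and Itga9, whose ligands include tenascin-C, at 4.2 ± 0.401 RPKM. These 3 levels did not overlap within their SD. The highest chain of basement membrane collagen, Col4a2, had 3.26 ± 1.33 RPKM, below Col25a1, a membrane-spanning collagen of neurons, at 8.42 ± 2.89 RPKM and the misnamed Col4a3bp at 14 ± 2.52 RPKM.

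Laminin chains were low, with Lamc1 at 3.71 ± 0.634, Lamb1 at 1.69 ± 0.788 and Lamb2 at 1.19 ± 0.335 RPKM. Mmp24 had 19.3 ± 0.842 and Mmp2 5.23 ± 0.154 RPKM, and the highest Adamts gene, Adamts10, had 2.63 ± 0.598 RPKM. After Timp2, the other inhibitors were low, with Timp3 at 0.651 ± 0.424, Timp1 at 0.611 ± 0.0476 and Timp4 at 0.177 ± 0.0819 RPKM. In all, 36 of the 165 genes lay over 1 RPKM in control and 13 over 10 RPKM.

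**Figure D1:**
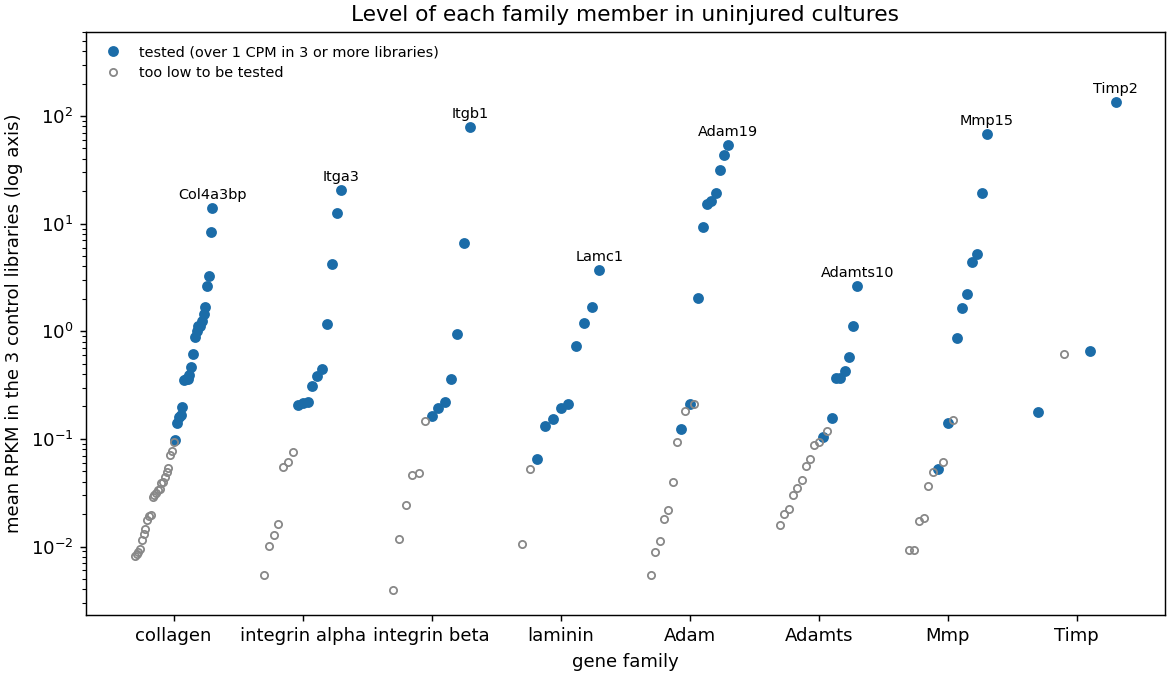
Mean level of each gene of the 8 families in the 3 control libraries, in RPKM on a log axis, with genes grouped by family and ordered by level within it. Filled points are genes that were tested and open points genes that were too low; Timp2 at 136 RPKM is the highest, genes at 0 in control are not drawn, and the highest of each family is named.

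Across the time course, changes came late, and each time point was compared with the same 3 control libraries. At 1 HPI, 0 of the 78 tested genes were past the test (adjusted p under 0.05 by the quasi-likelihood test of edgeR, adjusted over all genes after Benjamini and Hochberg) against 0.276% of all 13771 genes tested, and at 3 HPI 0 of 78 against 0.189%. At 1 HPI, 15 were higher and 63 lower than control, with a median log2 fold change of -0.10 against 0.0021 for all genes.

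At 8 HPI, 3 of 78 rose and 1 fell past the test, where 3.78% of all genes rose and 3.9% fell. At 16 HPI, 7 rose and 13 fell, where 10.7% of all genes rose and 11.5% fell. At 24 HPI, 7 rose and 9 fell, where 5.99% rose and 9.03% fell. The 78 genes had median log2 fold changes of -0.10, -0.05 and -0.02 at 8, 16 and 24 HPI, and that of all genes lay between -0.0022 and 0.0020 at these times.

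Genes that also changed over 2-fold were called. There were 3 at 8 HPI, 5 at 16 HPI and 5 at 24 HPI, against 0.537%, 1.49% and 0.821% of all genes. The called genes were Itga5 at all 3 times, Adamts1 and Adamts15 at 8 HPI, Itga6 and Itgb5 at 16 and 24 HPI, Timp4 and Col11a1 at 16 HPI, and Mmp19 and Mmp12 at 24 HPI. Each moved the same way in all 3 replicates.

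The counts by family stand beside 10.7% of all genes that rose and 11.5% that fell at 16 HPI. At 24 HPI these shares were 5.99% and 9.03%. By family at 16 HPI, 4 of the 10 tested Adam genes fell and 1 rose, and 9 of the 10 were lower than control. At 24 HPI, 4 of these 10 fell and 0 rose. Of the 9 tested Mmp genes, 2 rose and 1 fell at 16 HPI, and 2 rose and 2 fell at 24 HPI. Among the 22 tested collagen genes, 1 rose and 3 fell at 16 HPI and 2 rose and 1 fell at 24 HPI. The 9 laminin genes gave 0 that rose and 2 that fell at 16 HPI. Of the 10 tested integrin alpha genes 2 rose and 1 fell at 16 HPI, and of the 7 tested genes of the integrin beta family 1 rose.

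**Figure D2:**
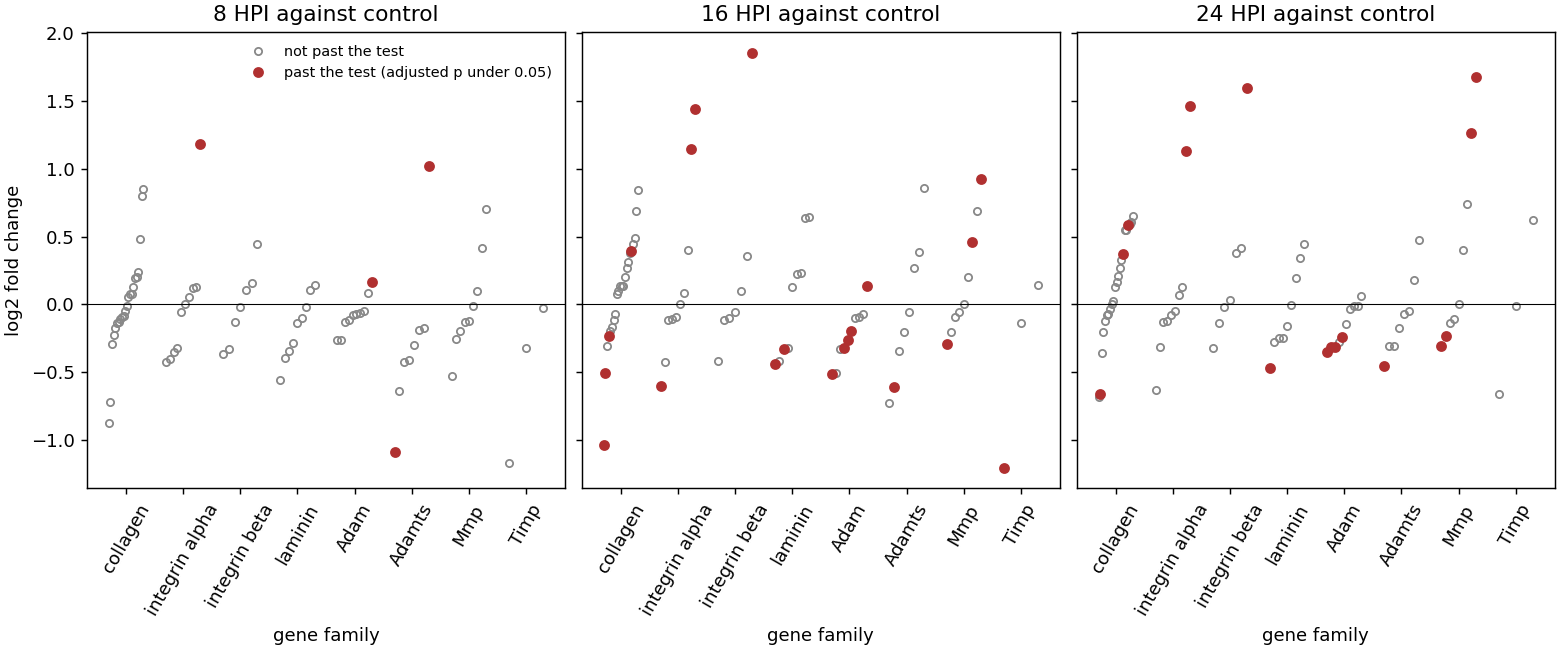
Log2 fold change of the 78 tested genes against control at 8, 16 and 24 HPI, grouped by family. Filled points passed the test with an adjusted p under 0.05 and open points did not; at 16 and 24 HPI the highest filled points belong to Itgb5, Itga5, Itga6, Mmp19 and Mmp12, and the filled Adam points at 24 HPI all lie below 0.

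Itga5 (chromosome 15, 103344286 to 103366763, minus strand, GRCm38), the alpha chain of the fibronectin receptor, had 0.762, 1.4 and 1.11 CPM in control replicates 1 to 3. It had 1.69, 1.48 and 3.79 CPM at 8 HPI, 2.56, 2.38 and 3.56 CPM at 16 HPI, and 2.94, 2.71 and 2.97 CPM at 24 HPI. All 9 of these libraries lay above the 3 controls, while those at 1 and 3 HPI overlapped them.

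The log2 fold change of Itga5 was 1.18 at 8 HPI (SE 0.306, adjusted p = 0.0209, edgeR's quasi-likelihood test), 1.44 at 16 HPI (SE 0.294, adjusted p = 0.00112) and 1.46 at 24 HPI (SE 0.287, adjusted p = 0.00154). The call at 8 HPI was lost without control replicates 1 or 3 or the 8 HPI replicate 3, where the log2 fold change was 1.04, 0.96 and 0.76. Those at 16 and 24 HPI held without any single library. Even at its highest Itga5 stayed rare beside Itgb1, its known beta chain, which had 366, 314 and 284 CPM in control and 347, 308 and 294 CPM at 24 HPI. The change of Itgb1 at 24 HPI was -0.02 on the log2 scale (SE 0.0514, adjusted p = 0.858), and its libraries overlapped the controls at every time.

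Itgb5 (chromosome 16, 33829665 to 33949338, plus strand), which pairs with Itgav as a vitronectin receptor, had 0.254, 0.369 and 1.73 CPM in the control replicates. It had 2.84, 2.83 and 3.13 CPM at 16 HPI and 2.14, 2.62 and 2.56 CPM at 24 HPI. The 6 injured libraries lay above all controls, and control replicate 3 stood well above the other 2 controls. Its rise was 3.61-fold at 16 HPI (log2 1.85, SE 0.357, adjusted p = 0.000657) and 3.01-fold at 24 HPI (log2 1.59, SE 0.360, adjusted p = 0.00459), and both calls held without any single library. Without control replicate 3 the log2 fold changes were 2.99 at 16 HPI (adjusted p = 0.000119) and 2.72 at 24 HPI (adjusted p = 0.000751), and with no replicate block adjusted p was 0.0912 and 0.244. The call at 24 HPI was also lost when replicate 1 was left out of every group (log2 1.23, adjusted p = 0.0570). The same held for replicate 2 (log2 1.27, adjusted p = 0.103).

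The control counts of Itgb5 were 5, 5 and 36. Its partner Itgav had 2.64, 3.91 and 5.78 CPM in control and 5.83, 4.02 and 6.32 CPM at 16 HPI, with overlapping groups, and its log2 fold change of 0.40 (SE 0.187, adjusted p = 0.136) was not past the test. Itgb3, the other known beta partner of Itgav in vitronectin receptors, went from 1.17, 1.18 and 1.06 CPM to 1.28, 1.47 and 1.57 CPM at 16 HPI, or 0.35 on the log2 scale (adjusted p = 0.444).

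Itga6 (chromosome 2, 71745616 to 71858416, plus strand), a laminin receptor chain, had 1.02, 1.48 and 3.08 CPM in control, 5.47, 2.49 and 4.54 CPM at 16 HPI, and 5.14, 2.76 and 4.43 CPM at 24 HPI. Replicate 2 was lowest at both late times, and control replicate 3 lay above it, so the groups overlapped. Within each replicate the late value was higher than the control, and the log2 fold change was 1.14 at 16 HPI (SE 0.256, adjusted p = 0.00239) and 1.13 at 24 HPI (SE 0.250, adjusted p = 0.00383). Without control replicate 1 these fell under 2-fold, to 0.72 at both times, and without replicate 1 of the injured group to 0.93 at 16 HPI and 0.97 at 24 HPI. Itgb4, a known partner of Itga6 in epithelia, had 0.915, 1.25 and 1.25 CPM in control and was not past the test, at -0.12 on the log2 scale at 16 HPI (adjusted p = 0.838).

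Itga4, whose receptors bind fibronectin and Vcam1, was the integrin chain that fell. It had 14.3, 18.8 and 15.7 CPM in control and 10.1, 12 and 10.1 CPM at 16 HPI. These groups did not overlap, and the log2 fold change was -0.60 (SE 0.119, adjusted p = 0.000801). At 24 HPI, with between 10.8 and 14.8 CPM in the 3 libraries, it was not past the test (log2 -0.31, adjusted p = 0.0678). Its exons share 1124 bases with Cerkl on the other strand, which had 0.559 CPM in control and was too low to be tested.

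The most abundant alpha chains were not past the test. Itga3 had 132, 108 and 109 CPM in control and 131, 94.9 and 102 CPM at 16 HPI, and Itga7 had 95.2, 104 and 108 CPM and then 95.7, 114 and 115 CPM. Their log2 fold changes at 16 HPI were -0.10 (SE 0.0564, adjusted p = 0.249) and 0.08 (SE 0.0537, adjusted p = 0.313), and that of Itga9 was -0.12 (SE 0.0817, adjusted p = 0.336). The integrin-binding proteins Itgb1bp1 and Itgb1bp2 and the centromere gene Itgb3bp were not past the test at any time, and Itgbl1, at 0.61, 0.295 and 0.963 CPM in control, was not tested.

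**Figure D3:**
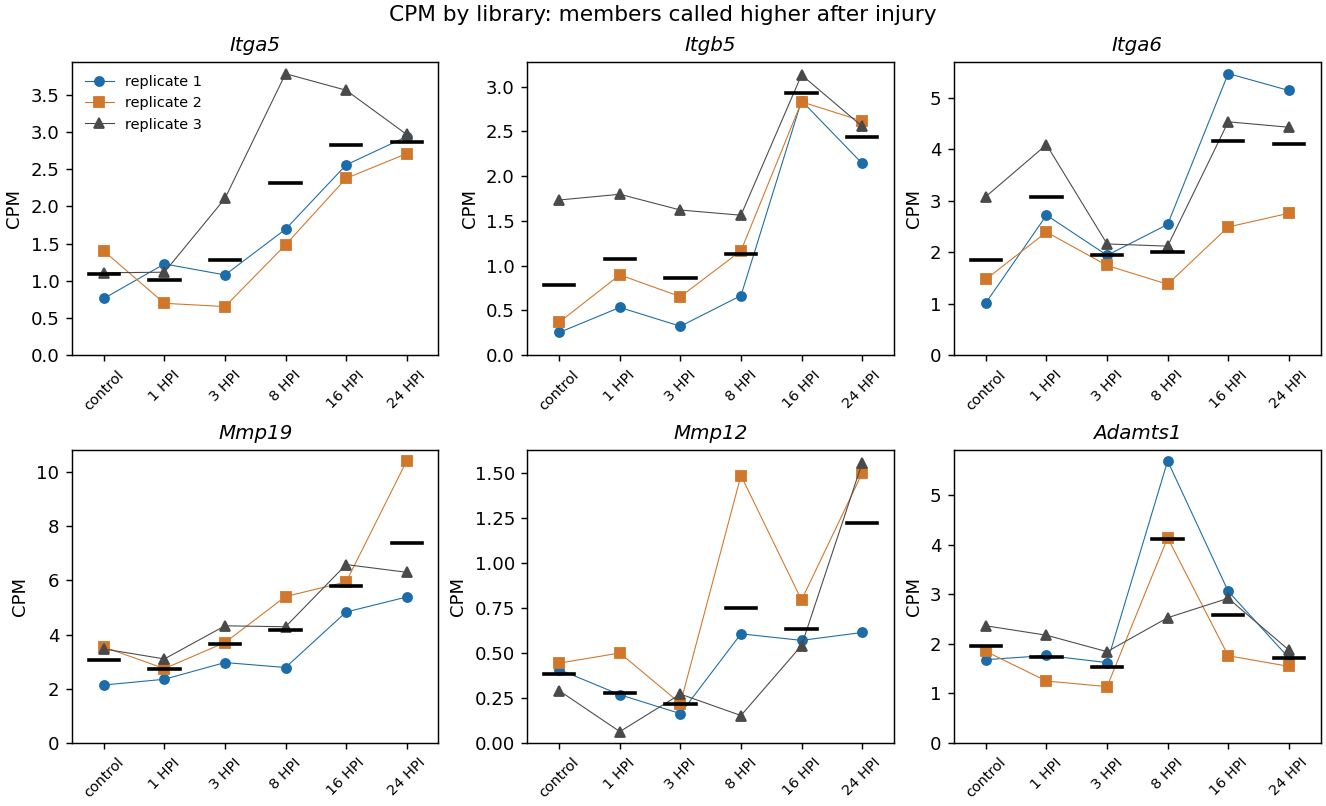
CPM of 6 genes called higher after injury in each of the 18 libraries, by time point, on axes that start at 0; points joined by a line share a replicate number and black bars are means of 3. Itga5 and Itgb5 lie above the control range at 16 and 24 HPI, Adamts1 peaks at 8 HPI, and Itga6 and Mmp12 differ between replicates.

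Of the collagens, the membrane-spanning Col25a1 (chromosome 3, 130131501 to 130599877, plus strand) changed most clearly. Its ectodomain is known from amyloid plaques, and it serves in motor innervation. It had 71.4, 146 and 110 CPM in control, 43.3, 122 and 71.9 CPM at 16 HPI and 43.2, 93.2 and 71.9 CPM at 24 HPI. Replicate 2 was highest at all 6 time points, so the groups overlapped, but each replicate fell from its own control. The log2 fold change was -0.51 at 16 HPI (SE 0.0800, adjusted p = 9.24e-05) and -0.66 at 24 HPI (SE 0.0798, adjusted p = 1.58e-05). With no replicate block it was -0.46 with an adjusted p of 0.642 at 16 HPI and -0.64 with an adjusted p of 0.572 at 24 HPI.

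Col11a1, a fibrillar chain of cartilage that is also made elsewhere, had 2.59, 1.4 and 2.17 CPM in control and 1.35, 0.849 and 0.864 CPM at 16 HPI, with no overlap. This gave a log2 fold change of -1.04 (SE 0.276, adjusted p = 0.00927), and it was lost without control replicate 1 (log2 -0.83, adjusted p = 0.0755) or 16 HPI replicate 3 (log2 -0.75, adjusted p = 0.106). At 24 HPI it was -0.68 (adjusted p = 0.0740).

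Rises among collagens were small. Col11a2, its partner chain in collagen XI, had 6.81, 5.31 and 8.62 CPM in control and 8.32, 7.3 and 11.9 CPM at 16 HPI, a log2 fold change of 0.40 (SE 0.105, adjusted p = 0.00846). Col18a1, a basement membrane collagen whose end is known as endostatin, had 8.23, 14.2 and 32.8 CPM in control and 17.9, 24.4 and 37 CPM at 24 HPI, with overlapping groups and a log2 fold change of 0.58 (SE 0.142, adjusted p = 0.00797).

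Col4a2, the highest of the basement membrane chains, was at 0.07 on the log2 scale at 16 HPI (adjusted p = 0.671) and at 0.16 at 24 HPI (adjusted p = 0.307). The fibrillar collagens of connective tissue were near the filter. Col1a2 had 0.813, 0.737 and 3.71 CPM in control and 1.78, 0.561 and 5.71 CPM at 24 HPI, and Col3a1 had 0.864, 0.811 and 4.19 CPM and then 3.67, 0.608 and 5.16 CPM. At 8 HPI both were highest in replicate 2, at 4.98 and 9.96 CPM. The standard errors of their log2 fold changes at 24 HPI were 0.639 and 0.789, so that a 2-fold change of either, a log2 value of 1, would have lain within 2 standard errors of 0.

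Laminin chains moved little, and those past the test fell. Lama3, an alpha chain of epithelial basement membranes, had 7.32, 9.59 and 6.79 CPM in control, 5.33, 6.4 and 5.51 CPM at 16 HPI, and 5.63, 5.75 and 5.53 CPM at 24 HPI. Both late groups lay below the controls, with log2 fold changes of -0.44 (SE 0.134, adjusted p = 0.0208) and -0.47 (SE 0.131, adjusted p = 0.0176). Without control replicate 2 these were -0.34 (adjusted p = 0.124) and -0.37 (adjusted p = 0.117). The call at 16 HPI was also lost without 16 HPI replicate 1 or 3, where adjusted p was 0.0677 and 0.0568, and that at 24 HPI without 24 HPI replicate 2, where adjusted p was 0.0897.

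Lamb1, a beta chain of most laminins, had 15.6, 9.66 and 25.1 CPM in control and 15, 7.3 and 17.9 CPM at 16 HPI. Replicate 3 was highest and replicate 2 lowest throughout, and the groups overlapped. This gave a log2 fold change of -0.33 (SE 0.104, adjusted p = 0.0282), and it was not past the test without control replicate 2 or 3 or 16 HPI replicate 2 or 3, where adjusted p lay between 0.0511 and 0.185. Lamb2 was at -0.32 (SE 0.157, adjusted p = 0.153) at 16 HPI.

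In the Mmp, Adam and Adamts families, Mmp11, Mmp12, Mmp19, Adam9 and Adamts1 rose at 1 or more of the times from 8 HPI on. Mmp15, Mmp16, Adam11, Adam19, Adam22, Adam23, Adamts3, Adamts15 and Adamts20 fell. Of those that fell, Adam11, Adam22 and Adam23 make proteins without protease activity. Mmp19 (chromosome 10, 128790910 to 128800824, plus strand), a secreted protease of basement membrane proteins, had 2.13, 3.54 and 3.47 CPM in control, 4.83, 5.95 and 6.59 CPM at 16 HPI and 5.39, 10.4 and 6.3 CPM at 24 HPI. All late libraries lay above the controls, and 24 HPI replicate 2 was the highest. On the log2 scale the change was 0.93 at 16 HPI (SE 0.178, adjusted p = 0.000623) and 1.27 at 24 HPI (SE 0.168, adjusted p = 3.57e-05). The call at 24 HPI held in every alternative fit, including the fit with no replicate block. The exons of Mmp19 share 789 bases with Tmem198b on the other strand, which fell by 0.43 on the log2 scale at 16 HPI (adjusted p = 0.0159), and whether the counting used strand is not given in the sources used here.

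Mmp12 (chromosome 9, 7344381 to 7369499, plus strand), known as macrophage elastase, was close to the detection limit. It had 8, 6 and 6 counts or 0.407, 0.442 and 0.289 CPM in control, and 10, 32 and 34 counts or 0.612, 1.5 and 1.55 CPM at 24 HPI. The 24 HPI libraries lay above the controls, replicate 1 by the least. This gave a log2 fold change of 1.67 (SE 0.448, adjusted p = 0.0141), and it was not past the test without control replicate 2 (1.53, adjusted p = 0.0875), without control replicate 3 (1.58, adjusted p = 0.0639) or 24 HPI replicate 3 (1.14, adjusted p = 0.127). At 16 HPI Mmp12 was not past the test (log2 0.69, adjusted p = 0.394). Of 6 myeloid markers only 2 passed the filter. These 2 were above control at 16 and 24 HPI, and Cd68 alone was past the test. Cd68 rose by 0.97 on the log2 scale at the earlier time (adjusted p = 0.00698) and by 0.93 at the later (adjusted p = 0.0125). The 6 myeloid markers summed to between 3.61 and 5.18 CPM in control and 5.75 and 6.92 CPM at 24 HPI, and their part in the level of Mmp12 was not tested.

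Mmp11, a secreted protease with few known matrix substrates, had 3.76, 5.6 and 4.38 CPM in control and 6.47, 5.89 and 6.32 CPM at 16 HPI, above all controls. The log2 fold change of 0.46 (SE 0.155, adjusted p = 0.0379) was not past the test without control replicate 1 or 3 or 16 HPI replicate 1 or 3, where adjusted p lay between 0.0718 and 0.188. The exons of Mmp11 share 155 bases with Chchd10, which had 185.8 CPM in control. Chchd10 was not past the test at 16 HPI (log2 0.07, adjusted p = 0.397), and its part in the counts of Mmp11 was not tested. Mmp15 (chromosome 8, 95352268 to 95375080, plus strand) had 383, 365 and 364 CPM in control, 311, 299 and 300 CPM at 16 HPI, and 303, 298 and 300 CPM at 24 HPI. Its late libraries all lay below the controls within a narrow range. On the log2 scale the change was -0.29 at 16 HPI (SE 0.0476, adjusted p = 0.000146) and -0.30 at 24 HPI (SE 0.0475, adjusted p = 0.000197), and it passed the test in every alternative fit.

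Mmp16, a further membrane-bound protease, had 43.6, 38.3 and 32.2 CPM in control and 38.6, 29.8 and 28.9 CPM at 24 HPI, with overlapping groups but a lower value within each replicate. It fell by 0.23 on the log2 scale (SE 0.0732, adjusted p = 0.0375), and it was not past the test without any 1 control or without 24 HPI replicate 2 or 3, where adjusted p lay between 0.0598 and 0.190. Of the other abundant Mmp genes, Mmp24 and Mmp2 were not past the test at any time, with log2 fold changes of -0.11 (SE 0.0520, adjusted p = 0.175) and -0.14 (SE 0.0945, adjusted p = 0.369) at 24 HPI. Mmp9, a gelatinase often studied in injured nerve, had no more than 4 counts in any library, and Mmp14, the best-known membrane-bound Mmp, had 0.813, 0.295 and 1.4 CPM in control and 0.919, 0.14 and 3.29 CPM at 24 HPI (log2 0.74, SE 0.446, adjusted p = 0.288).

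Among the Adam genes, Adam11 had 243, 203 and 292 CPM in control, 140, 182 and 192 CPM at 16 HPI and 159, 175 and 249 CPM at 24 HPI. The 16 HPI libraries lay below the controls and those at 24 HPI overlapped them. On the log2 scale the change was -0.52 at 16 HPI (SE 0.0878, adjusted p = 0.000198) and -0.35 at 24 HPI (SE 0.0871, adjusted p = 0.00916). At 24 HPI it was not past the test without control replicate 1 (-0.27, adjusted p = 0.0691) or 24 HPI replicate 1 (-0.27, adjusted p = 0.0751).

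Adam22 had 532, 425 and 398 CPM in control, 428, 345 and 315 CPM at 16 HPI and 449, 320 and 324 CPM at 24 HPI, and replicate 1 was highest at all 6 time points. On the log2 scale the change was -0.32 at 16 HPI (SE 0.0515, adjusted p = 0.000124) and -0.31 at 24 HPI (SE 0.0514, adjusted p = 0.000308). Adam23 had 289, 273 and 265 CPM in control, and its libraries at 16 and 24 HPI, between 207 and 262 CPM, lay below them. Its log2 fold change was -0.26 (SE 0.0600, adjusted p = 0.00324) and -0.24 (SE 0.0598, adjusted p = 0.00920) at these times.

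Adam19 had 392, 381 and 376 CPM in control, 350, 342 and 315 CPM at 16 HPI, and 318, 313 and 296 CPM at 24 HPI. The late groups lay below the controls, with log2 fold changes of -0.19 (SE 0.0471, adjusted p = 0.00479) and -0.31 (SE 0.0471, adjusted p = 0.000138). Adam9, an active sheddase, was the Adam gene that rose. It went from 79.4, 77.3 and 78.8 CPM to 87.9, 86.8 and 89.5 CPM at 8 HPI, with no overlap and a log2 fold change of 0.17 (SE 0.0481, adjusted p = 0.0367). That call was lost without any 1 of the 6 libraries compared, where adjusted p lay between 0.0714 and 0.163. At 16 HPI the change was 0.13 (adjusted p = 0.0482), and it was not past the test without any 1 of the libraries other than 16 HPI replicate 2, where adjusted p lay between 0.0948 and 0.180.

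**Figure D4:**
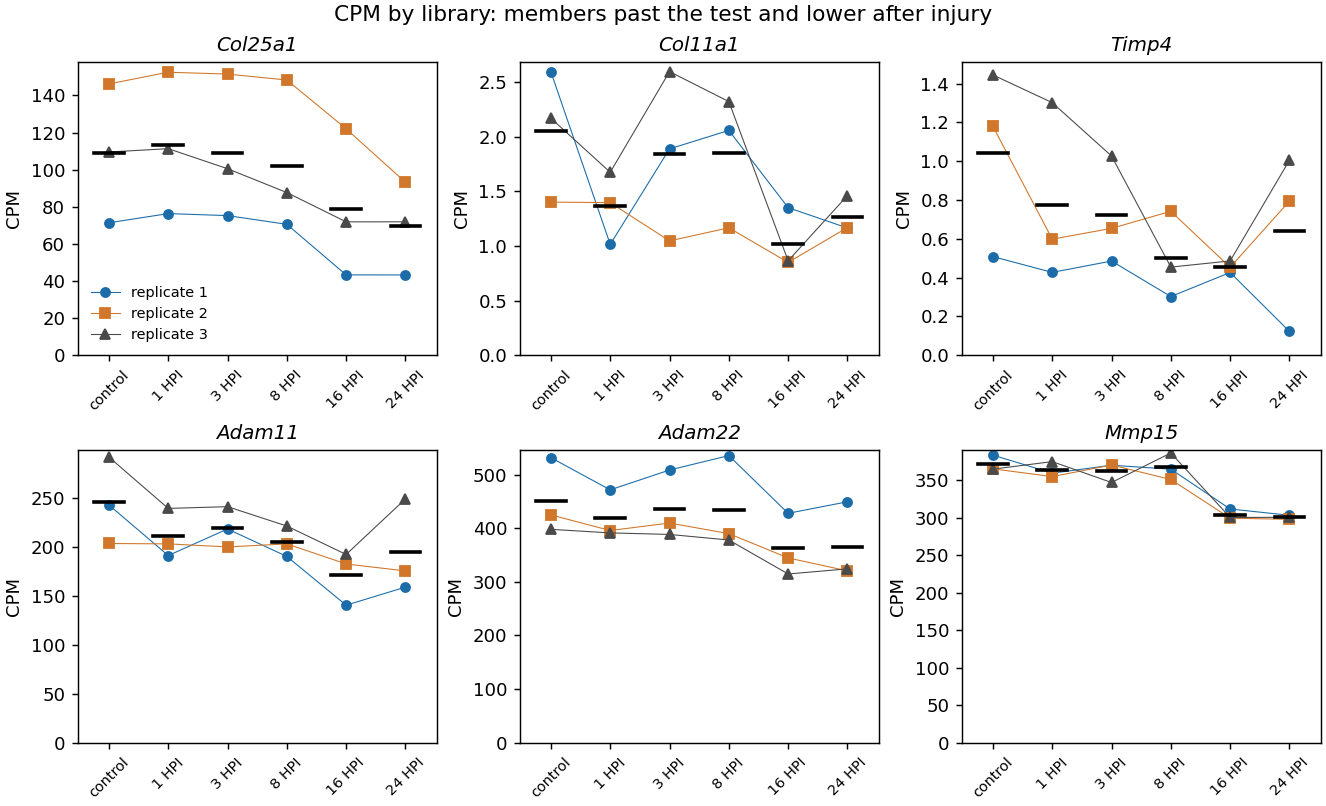
CPM of 6 genes that were past the test and lower after injury in each of the 18 libraries, by time point, on axes that start at 0; points joined by a line share a replicate number and black bars are means of 3. Mmp15 falls within a narrow range at 16 and 24 HPI, Col25a1 falls within each replicate although replicates differ, and Timp4 and Col11a1 stay near 1 or 2 CPM.

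Of the 8 tested genes of the secreted Adamts proteases, Adamts1 was called higher and Adamts15 lower at 8 HPI, while Adamts3 fell at 16 HPI and Adamts20 at 24 HPI. Adamts1 (chromosome 16, 85793827 to 85803113, minus strand), which cuts aggrecan and versican, had 1.68, 1.84 and 2.36 CPM in control and 5.69, 4.13 and 2.52 CPM at 8 HPI. The 8 HPI libraries lay above the controls, replicate 3 by little. This gave a log2 fold change of 1.02 (SE 0.252, adjusted p = 0.0160), and without control replicate 1, 8 HPI replicate 1 or 8 HPI replicate 2 it was 0.77 (adjusted p = 0.118), 0.67 (adjusted p = 0.186) and 0.89 (adjusted p = 0.0550). At 24 HPI Adamts1 had 1.72, 1.54 and 1.87 CPM, at -0.18 on the log2 scale (adjusted p = 0.721).

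Adamts15, a further aggrecan-cutting protease, had 7.68, 3.1 and 7.18 CPM in control and 5.26, 1.7 and 1.77 CPM at 8 HPI, with overlapping groups. The log2 fold change of -1.08 (SE 0.333) had an adjusted p of 0.0498 in edgeR's quasi-likelihood test, and 11 of 15 alternative fits took it out of the called genes. Among single libraries these were the 3 controls and 8 HPI replicates 2 and 3, without which the log2 fold change lay between -1.17 and -0.65 and adjusted p between 0.0662 and 0.369. Without 8 HPI replicate 1 it was -1.71 (adjusted p = 0.0246). Adamts3, which trims procollagen and activates Vegfc, had 3.56, 5.16 and 9.49 CPM in control and 2.84, 2.49 and 6.53 CPM at 16 HPI. These overlapping groups differed by -0.61 on the log2 scale (SE 0.173, adjusted p = 0.0146), and without control replicate 2 or 3 or 16 HPI replicate 2 adjusted p was 0.0719, 0.0780 and 0.0530. Adamts10, the highest of the family, was at -0.20 at 16 HPI (SE 0.0873, adjusted p = 0.110).

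Of the inhibitors, Timp2 had 599, 483 and 506 CPM in control, 599, 390 and 471 CPM at 16 HPI and 638, 460 and 488 CPM at 24 HPI, and was not past the test (log2 -0.13, SE 0.0605, adjusted p = 0.122, and -0.01, SE 0.0604, adjusted p = 0.933). Timp4 had 0.508, 1.18 and 1.45 CPM, or 10, 16 and 30 counts, in control and 0.426, 0.453 and 0.486 CPM, or 6, 8 and 9 counts, at 16 HPI. The 16 HPI libraries lay below the controls, control replicate 1 being only just above them.

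The log2 fold change of Timp4 was -1.20 (SE 0.369, adjusted p = 0.0222), and the call was lost without control replicate 2 or 3 or 16 HPI replicate 2 or 3, where it lay between -1.20 and -0.90 with an adjusted p between 0.0681 and 0.191. Timp4 lies within Syn2 on the other strand and shares 90 exon bases with it. Syn2, a synaptic vesicle gene with 68.3 CPM in control, fell by 0.46 on the log2 scale at 16 HPI (adjusted p = 5.29e-05), and its part in the counts of Timp4 was not tested. Timp3 had 5.79, 1.62 and 8.48 CPM in control and 10.3, 3.83 and 10.2 CPM at 24 HPI, a log2 fold change of 0.62 (SE 0.243, adjusted p = 0.0894). The exons of Timp3 share 1733 bases with Syn3, which had 3.24 CPM in control. Syn3 was not past the test at 24 HPI (log2 -0.03, adjusted p = 0.929), and its part in the counts of Timp3 was not tested. Timp1, which has been studied as a gene induced in injured nerve, had 0.508, 0.59 and 0.53 CPM in control and was not tested.

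The lists of neighbouring pathways were described with the same test. Of 58 matrix glycoprotein and proteoglycan genes, 32 were tested, and at 16 HPI 1 rose and 8 fell, where 10.7% of all genes rose and 11.5% fell, with a median log2 fold change of -0.08 against -0.0022 for all genes. Vcan, the proteoglycan versican that is cut by Adamts1, had 49.1, 12.8 and 8.28 CPM in control and 17.9, 4.81 and 4.86 CPM at 16 HPI, which overlapped between replicates but were lower within each, with a log2 fold change of -1.28 (SE 0.216, adjusted p = 0.000185). Fbn2, a fibrillin of elastic microfibrils, fell by 0.58 on the log2 scale (adjusted p = 0.000574), and Ncan, the brain proteoglycan neurocan, fell by 0.34 on the log2 scale (adjusted p = 1.23e-05). Fn1, the fibronectin that is the ligand of the Itga5 receptor, had 0.966, 0.664 and 1.06 CPM in control.

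Of 28 collagen-processing genes, 27 were tested, and at 24 HPI 1 rose and 4 fell, where 5.99% of all genes rose and 9.03% fell. Bmp1, which removes the ends of procollagen, rose by 0.68 on the log2 scale (SE 0.136, adjusted p = 0.0017), and its relative Tll2 fell by 1.26 (SE 0.235, adjusted p = 0.00101). Of 32 integrin adaptor genes, 27 were tested, and at 16 HPI 5 rose and 3 fell, against 10.7% and 11.5% of all genes. Pxn, the focal adhesion protein paxillin, had 2.95, 4.06 and 5.64 CPM in control and 7.46, 9.8 and 11.7 CPM at 16 HPI, with no overlap, and rose by 1.21 on the log2 scale (SE 0.133, adjusted p = 1.87e-06). Zyx, or zyxin, rose by 0.72 (adjusted p = 3.72e-05), and Tln2, a talin that activates integrins, fell by 0.55 (adjusted p = 3.03e-07).

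Of 10 genes of the plasminogen system, a protease cascade on the cell surface, 7 were tested, and 3 rose at 16 HPI and 1 at 24 HPI, against 10.7% and 5.99% of all genes, and 0 fell at either time. Plaur, the urokinase receptor, had 0.762, 0.221 and 0.0963 CPM in control and 1.71, 0.736 and 1.08 CPM at 16 HPI, with overlapping groups. It rose by 1.69 on the log2 scale (SE 0.398, adjusted p = 0.00368). In control replicates 2 and 3 it was close to the detection limit, as 3 counts came to 0.218 and 0.150 CPM there. Plat, the tissue plasminogen activator, had 29.4, 27.3 and 25.6 CPM in control and 54.3, 41 and 36 CPM at 8 HPI, with no overlap and a log2 fold change of 0.66 (SE 0.0810, adjusted p = 2.36e-05).

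Replicates differed in many of these genes in the same order at every time. In 28 of the 78 tested genes (35.9%) the same replicate was highest at all 6 time points, against 23.3% of all tested genes, and in 20 of the 28 it was replicate 3. These 20 included 11 collagen genes and the laminin genes Lama5, Lamb1 and Lamc1.

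The markers of other cell types were low beside those of sensory neurons, whose 7 genes summed to between 7669 and 9687 CPM in each library. This sum was lower at the late times, with 8848 to 9389 CPM in control, 7669 to 8471 CPM at 16 HPI and 8130 to 8415 CPM at 24 HPI, and its part in the falls of the abundant Adam and Mmp genes was not tested. All 7 were below control at 16 HPI, where the neuronal tubulin gene Tubb3 was the one past the test (log2 -0.40, adjusted p = 1.09e-05). At 24 HPI 5 of the 7 were below control, and 2 fell past the test, among them Tubb3 (log2 -0.37). The 2 others, Isl1 (log2 0.26) and Pou4f1 (log2 0.20), rose past it.

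The 10 fibroblast markers summed to 6.35, 2.95 and 14.6 CPM in control replicates 1 to 3 and to 11.6, 4.63 and 20.3 CPM at 24 HPI, most of it Postn, or periostin, with 2.9, 0.737 and 11.1 CPM in control. Replicate 3 was the highest and replicate 2 the lowest in both groups. At 8 HPI the sum was 8.41, 6.57 and 4.39 CPM, where Col1a2 had 1.69, 4.98 and 0.656 CPM, so that their orders differed. At 16 HPI replicate 1 was the highest and replicate 2, with a sum of 4.3 CPM, the lowest, as in Col1a2 with 3.13, 0.623 and 2.05 CPM. Dcn, or decorin, rose by a log2 fold change of 2.07 at 16 HPI (SE 0.279, adjusted p = 1.77e-05) and 2.22 at 24 HPI (SE 0.269, adjusted p = 1.58e-05), from 0.813, 0.221 and 0.674 CPM in control to 4.35, 2.01 and 2.01 CPM at 24 HPI. In control replicate 2 it was close to the detection limit, as 3 counts came to 0.218 CPM there. Of the 10 fibroblast markers 3 were tested, and at both 16 and 24 HPI 2 were above control and 1 below. The median log2 fold change of the 3 was 0.17 at 16 HPI and 0.53 at 24 HPI, and Dcn alone was past the test. Twist1, Prrx1, Osr1 and Tbx18, which mark mesenchymal cells, had no more than 3 counts in any library. The part of such cells in the levels of the collagens, laminins and integrins was not tested.

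The 12 markers of satellite glia and Schwann cells summed to between 100.9 and 131.7 CPM, nearly all of it Mbp, with 117, 117 and 90.9 CPM in control, and none of the 5 that were tested was past the test at 8, 16 or 24 HPI. Of these 5, 4 were above control at both late times, with a median log2 fold change of 0.33 at 16 HPI and 0.85 at 24 HPI, where 2 had an unadjusted p under 0.05. They were Erbb3, a neuregulin receptor (log2 0.89, SE 0.338, adjusted p = 0.0815), and Mbp, which was lower (log2 -0.14, SE 0.0580, adjusted p = 0.119). The part of glial cells in the late integrin and collagen levels was not tested. Sox10, which defines these cells, had 0.153, 0.0737 and 1.45 CPM in control, so it was highest in control replicate 3, where Mbp and the sum of the 12 markers were lowest. Endothelial markers summed to no more than 2.19 CPM.

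**Figure D5:**
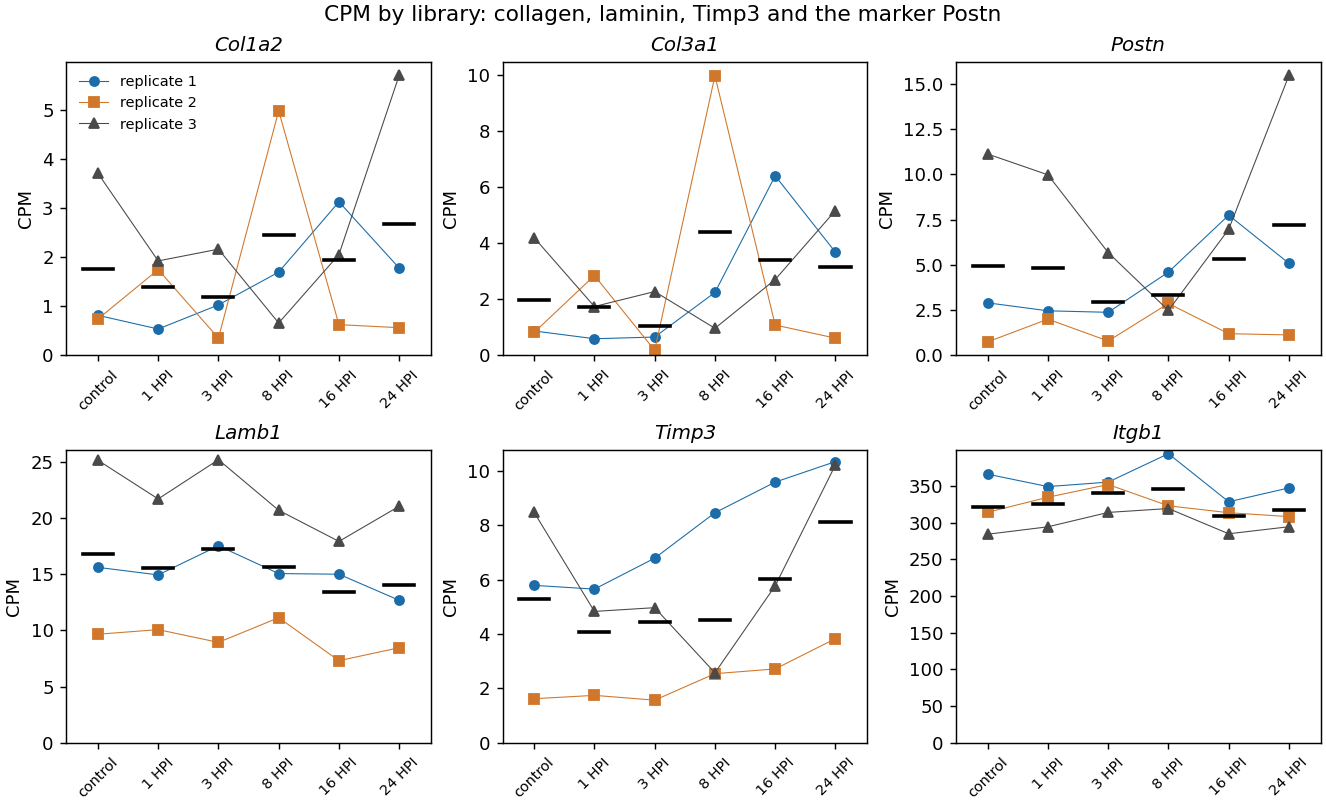
CPM of 5 genes of the families and of the fibroblast marker Postn in each of the 18 libraries, by time point, on axes that start at 0; points joined by a line share a replicate number and black bars are means of 3. Lamb1 keeps the order of its replicates at every time, replicate 2 has 4.98 CPM of Col1a2 and 9.96 CPM of Col3a1 at 8 HPI and at most 1.74 and 2.84 CPM at the other times, and Itgb1 stays between 284 and 394 CPM.

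Late changes were also compared with each other, by 24 HPI against 16 HPI, where 1 of the 78 tested genes rose and 2 fell, against 3.59% of all genes that rose and 6.22% that fell. Adamts20, a protease of the versican-cutting group, had 3.41, 3.45 and 5.24 CPM at 16 HPI and 1.78, 2.43 and 3.1 CPM at 24 HPI, with no overlap, and fell by 0.72 on the log2 scale (SE 0.143, adjusted p = 0.00252). Against control, at 2.49, 2.95 and 4.58 CPM, it was at 0.27 at 16 HPI (adjusted p = 0.211) and -0.45 at 24 HPI (SE 0.146, adjusted p = 0.0408), and the latter was lost without any 1 of the 6 libraries compared, where adjusted p lay between 0.0512 and 0.204.

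Lamc1, the gamma chain of most laminins, had 34.9, 33.9 and 38.5 CPM at 16 HPI and 20.6, 25.5 and 29.7 CPM at 24 HPI, with no overlap, and fell by 0.51 on the log2 scale (SE 0.103, adjusted p = 0.003). Against control, at 25.9, 29.9 and 36.3 CPM, neither late time was past the test (0.23, adjusted p = 0.118, and -0.28, adjusted p = 0.0799). Col4a3bp, the ceramide transfer protein, had 139, 106 and 100 CPM in control, 110, 89.3 and 93.9 CPM at 16 HPI and 127, 102 and 107 CPM at 24 HPI. It fell by 0.23 on the log2 scale at 16 HPI (SE 0.0505, adjusted p = 0.00198) and rose by 0.20 from 16 to 24 HPI (SE 0.0503, adjusted p = 0.015), which was not past the test without 16 HPI replicate 1 or 2 or 24 HPI replicate 3, where adjusted p lay between 0.0573 and 0.110.

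The replicate block bore on most of these results. With no replicate block, 0 of the 4 genes past the test at 8 HPI, 2 of the 20 at 16 HPI and 3 of the 16 at 24 HPI would be counted. Of the 38 tests of named genes past the threshold, 5 kept their call. Nothing in the labels says whether replicates came from separate cultures or animals, so the p-values measure the spread between these libraries, which may be technical.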

How the data were processed

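Per the labels, RNA was depleted of rRNA (Ribo-Zero Gold) and copied to cDNA (SMARTer). The authors deposited raw counts per gene for each library; the submitters' processing notes name FastQC, STAR, HTSeq and DESeq2 and build mm10, and the paper's methods name featureCounts as the counter. Entries for reads on no gene (25.2% to 33.2% of counts) were left out. GENCODE vM21 named 47224 of 47643 identifiers.

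Counts were analysed with edgeR 4.0.16 (R 4.3.3): filter of over 1 CPM in at least 3 libraries (13771 genes), TMM, and 1 two-sided quasi-likelihood fit of all 18 libraries with time point and replicate number, Benjamini-Hochberg adjusted over all genes. CPM are TMM-normalised, and RPKM also divide by exon length. Same-numbered libraries deviated together from the means of their groups (r from 0.484 to 0.765 in 45 pairs), so the number was used as a block. In the 90 other pairs r lay between -0.577 and -0.0423. Subtracting the group mean itself pushes these values below 0, so they are no separate support. On simulated counts for 16 HPI, the fit called 200 of the 200 genes given a 3-fold change and made 0 false calls (13540 genes). The changed genes were drawn only from genes with high summed counts, and the simulation held no replicate effect. It therefore does not cover low genes such as Mmp12 and Timp4, or differences between replicates.

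The members and lists were chosen with earlier results of these data known. Named genes are every called gene, the 5 largest changes past the test in each direction at 8, 16 and 24 HPI, the 3 highest control RPKM of each family, and the 5 misnamed genes. Further genes (among them Col1a2, Col3a1, Col11a2, Col18a1, Adam23, Mmp9, Mmp16, Mmp14, Itgav, Itgb3, Itgb4 and the Mmp genes with AP-1 sites) were named after their values were seen. Alternatives were DESeq2 1.42.0 (size factors or Wald test), 2 other filters, no replicate block, the 2 compared groups alone, each library left out, and, added after the data were seen, each replicate number left out.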

Additional observations from a re-analysis of the deposited data

Results flagged for a closer look

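In 3 genes the level differed between 16 and 24 HPI by a direct test of the later against the earlier time (edgeR's quasi-likelihood test, Benjamini-Hochberg adjusted over all genes). Hours in culture and hours after injury cannot be told apart in this comparison. Adamts20 had a log2 difference of -0.72 (adjusted p = 0.00252), in 3 of 3 replicates. Lamc1 had one of -0.51 (adjusted p = 0.003), also in 3 of 3 replicates. Col4a3bp, which is no collagen, had one of 0.20 (adjusted p = 0.015), in 3 of 3 replicates. Single outlying libraries were not searched for, since each group held 3.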

How the results depend on the processing

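Main counts of genes past the test against control were 0, 4, 20 and 16 at 1, 8, 16 and 24 HPI, and 3 for 24 against 16 HPI, and 3, 5, 5 and 0 genes were called at 8, 16 and 24 HPI and for 24 against 16 HPI. With no replicate block, 0, 2, 3 and 0 were past the test from 8 HPI on, and 0, 0 and 1 were called at 8, 16 and 24 HPI. With over 1 CPM required in all 18 libraries, which leaves out the low genes, 2 were past the test at 8 HPI, and 1, 0 and 1 were called. The DESeq2 Wald test gave 2 past the test at 8 HPI. With the 2 compared groups alone, 4 were past the test at 1 HPI, 1 at 8 HPI and 5 for 24 against 16 HPI, and 1 was called at 8 HPI. Leaving out a library, or a replicate number, gave 1 to 4 past the test and 0 to 3 called at 8 HPI, 15 to 19 and 3 to 6 at 16 HPI, 9 to 15 and 3 to 5 at 24 HPI, and 1 to 5 and 0 to 1 for 24 against 16 HPI. The cause of these shifts was not tested. The 3 called at 16 HPI came without control replicate 1 and also with replicate number 1 left out of every group. The 9 past the test at 24 HPI came without control replicate 2.

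The 38 tests of named genes past the threshold were refitted 560 times, where 393 kept the call and 0 turned sign. These were genes of the families, and the genes of the neighbouring lists and the cell type markers were not among them. The call held in every alternative for 4 of the 38, namely Mmp15 at 16 and 24 HPI and Adam19 and Mmp19 at 24 HPI. No single library ended 19 of them. At 3 counts or fewer in a library, 31 genes of the families could not be measured here.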
